A study of Sus scrofa with 3 samples.

Results

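The cytosolic ribosomal protein genes were followed across 3 lung samples of minipigs, which are pigs bred small for laboratory and surgical work. They were taken by gene symbol: a probe set was a member where its only annotated gene carried an RPL or RPS number, or was RPLP0, RPLP1, RPLP2 or RPSA, and the kinases whose symbols start with RPS6K were left out. This gave 94 probe sets for 62 genes, of 23935 probe sets and 6765 named genes on the array. Of the 62 genes, 25 belong by their symbols to the small subunit and 37 to the large subunit. A further 8 probe sets were annotated to a ribosomal protein gene together with another gene and were not used. By gene identifier, all 62 symbols were found in RefSeq's list of pig genes (assembly Sscrofa11.1).

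The operated lung was the left lung of a minipig whose left pulmonary artery was occluded transiently, with the bronchus left alone so that the lung stayed ventilated. The non-operated lung was the right lung of a minipig after the same ischemia-reperfusion procedure, and the sham lung came from a sham minipig. Each group was 1 array of whole lung tissue RNA from animals kept free of specific pathogens. No breed, age, sex, genotype or time after reperfusion is given in the sources used here, nor whether both ischemia-reperfusion lungs came from 1 animal. The design asks how each lung after ischemia-reperfusion differs from a sham lung and how the occluded side differs from the other side.

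Ribosomal proteins form, with ribosomal RNA, the small subunit that decodes mRNA and the large subunit that joins amino acids. The subunits need one copy of nearly every protein, so the genes are transcribed together and their mRNAs are among the most abundant in most tissues. In mammals these mRNAs begin with a short pyrimidine tract, the terminal oligopyrimidine motif, through which their translation is held back when the growth-regulating kinase mTOR is inactive. Growing and dividing cells make more ribosomes than resting ones.

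The unit throughout is the MAS5 signal on the log2 scale, which is relative to each array's own scaling. A gene was represented by its probe set with the highest mean signal, and the median of all probe sets of an array, 7.31 in the operated lung, 7.31 in the non-operated lung and 7.33 in sham, served as the floor below which a signal was not read. With 1 array per group no difference has a replicate check and no p-value can be given. In whole tissue, fewer cells of a type and less RNA per cell cannot be told apart. The sham array stood apart from both others: in operated over sham, 8.79% of all counted genes were lower by 2-fold or more, against 0.182% lower and 0.0607% higher in operated over non-operated lung. Animal, procedure and handling of the arrays cannot be told apart in that gap. Lung markers were present: SFTPC, the gene of surfactant protein C made by alveolar type 2 cells, had a log2 signal of 14.52 in the operated lung, 14.56 in the non-operated lung and 14.44 in sham.

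Of the 62 genes, 59 lay above the floor on all 3 arrays. Their probe sets were among the brightest on the chip. In the top 1% of signals, which is 239 probe sets, stood the representative probe sets of 52 ribosomal protein genes in the operated lung, 52 in the non-operated lung and 54 in sham. The brightest probe set of the sham array was that of RPS18, a protein of the head of the small subunit. It had a log2 signal of 14.60 in the operated lung, 14.76 in the non-operated lung and 14.83 in sham. By mean signal over the 3 arrays, the next members were RPL5, RPS27A and RPS23. RPL5, which carries the 5S RNA into the large subunit, had 14.40 in the operated lung, 14.55 in the non-operated lung and 14.79 in sham. RPS27A, a fusion of ubiquitin with a small-subunit protein, had 14.51, 14.52 and 14.62 in the same order of arrays. RPS23, a protein of the decoding centre, had 14.37, 14.48 and 14.56. All 4 were highest in sham and lowest in the operated lung.

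Outside the bright group were 3 genes with only 1 probe set each, and these could not be read on most arrays. RPS15A had a log2 signal of 4.99 in the operated lung, 0.56 in the non-operated lung and 4.52 in sham. RPL26 had 6.93, 6.90 and 6.96. Both were under the floor on every array, so they have no ratio. RPL30 had 6.48 in the operated lung and 5.87 in sham, under the floor, and 7.45 in the non-operated lung, just over it, so only a bound of at least 0.12 above sham on the log2 scale could be given. RPL37 was the dimmest gene above the floor on all arrays, with 10.24 in the operated lung, 10.18 in the non-operated lung and 10.75 in sham. Signals of different probe sets do not compare mRNA amounts, so a dim probe set is no measure of a scarce mRNA.

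**Figure D1:**
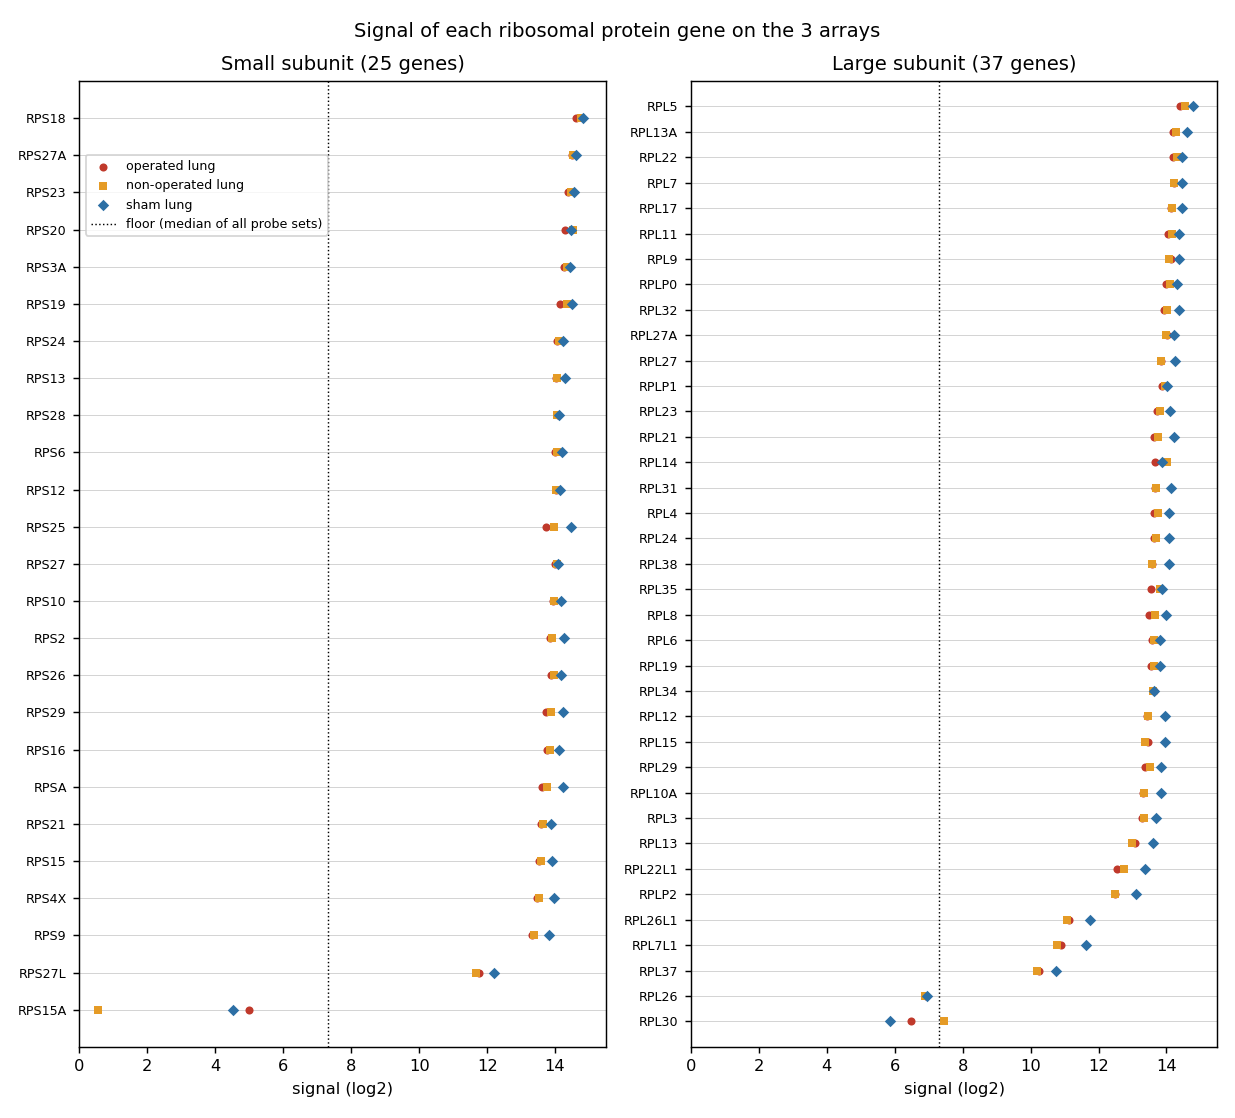
Log2 signal (x axis) of each of the 62 ribosomal protein genes (rows, ordered by mean signal within a subunit) in the operated lung (circles), non-operated lung (squares) and sham lung (diamonds), with the floor dotted. Most genes sit between 13 and 15 with the sham diamond on the right; RPS15A, RPL26 and RPL30 lie at or under the floor.

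In the operated lung every one of the 59 readable ribosomal protein genes had a lower signal than in sham, by small amounts. The median log2 ratio of operated over sham was -0.38, which is 23.2% less signal, with an interquartile range of -0.50 to -0.24 and an SD over genes of 0.18. Over all 5097 counted genes the median was -0.11, and 57.7% had a ratio below 0. A share of 50.0% of all genes lies below that median by its definition, and 55 of the 59 ribosomal protein genes did so. The exceptions were RPL34, RPS12, RPS27 and RPS28. None of the 59 was at least 2-fold lower or higher, against 8.79% and 8.65% of all genes, while 6 were at least 1.5-fold lower, against 21.7%, and 0 that much higher, against 16.7%. The SD over all counted genes was 0.82. After quantile normalization, which gives all arrays the same distribution of signals, the median was -0.17 and 50 of the 59 genes were below 0, beside -0.10 and 56.9% for all genes. Members minus all genes was then -0.072, against -0.267 in the values as deposited.

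In the non-operated lung the signals were also lower than in sham, for 57 of 60 genes counted, against 56.6% of all 5113 genes. The median log2 ratio was -0.29, or 18.0% less signal, beside -0.10 for all genes, with an interquartile range of -0.43 to -0.14. Below the median of all genes were 48 of the 60. Again 0 genes were 2-fold lower or higher, against 8.55% and 8.96% of all genes, while 6 were at least 1.5-fold lower, against 21.4%, and 0 that much higher, against 17.5%. After quantile normalization the median was -0.16 and 49 of 60 genes were below 0, beside -0.09 and 55.9% for all genes. Members minus all genes was then -0.074, against -0.184 in the values as deposited. RPL14 and RPS20 had ratios above 0, at 0.17 and 0.04, besides the bound for RPL30. Both lungs were set against the same sham array, so the resemblance of their ratios is no independent evidence.

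Between the sides the differences were smaller still. In operated over non-operated lung the median was -0.08, or 5.13% less signal, beside -0.02 for all genes, and 48 of 60 genes were below 0, against 52.8% of 4944 genes. RPL30 is among the 48, with its direction fixed, since it was above the floor in the non-operated lung only. Ratios ran from -0.37 for RPL14 to 0.11 for RPS27L, and 0 genes differed 1.5-fold in either direction, where 2.10% of all genes were lower and 1.31% higher. Other genes of the same brightness also lay below 0: at a mean signal of 14 to 15, 22 of 26 member probe sets and 95.7% of 23 other probe sets did, with a median of -0.08 in both. At 13 to 14 it was 27 of 31 member probe sets and 67.8% of 90 others, with medians of -0.08 and -0.04. After quantile normalization the median was 0.00 and 28 of 60 genes were below 0, against 51.7% of all genes. So no direction held between the sides.

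Read as an order of the 3 arrays, the sham array was highest for 57 of the 59 genes, against 51.8% of all genes above the floor on all arrays. The operated lung was lowest for 47 of the 59, against 32.3%. The full order, sham over non-operated over operated, was found in 45 of the 59 genes, against 26.3%. After quantile normalization the counts were 48 for sham highest, 25 for operated lowest and 23 for the full order, against 51.1%, 31.3% and 25.3% of all genes. For RPL14 and RPS20 the non-operated lung was highest.

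**Figure D2:**
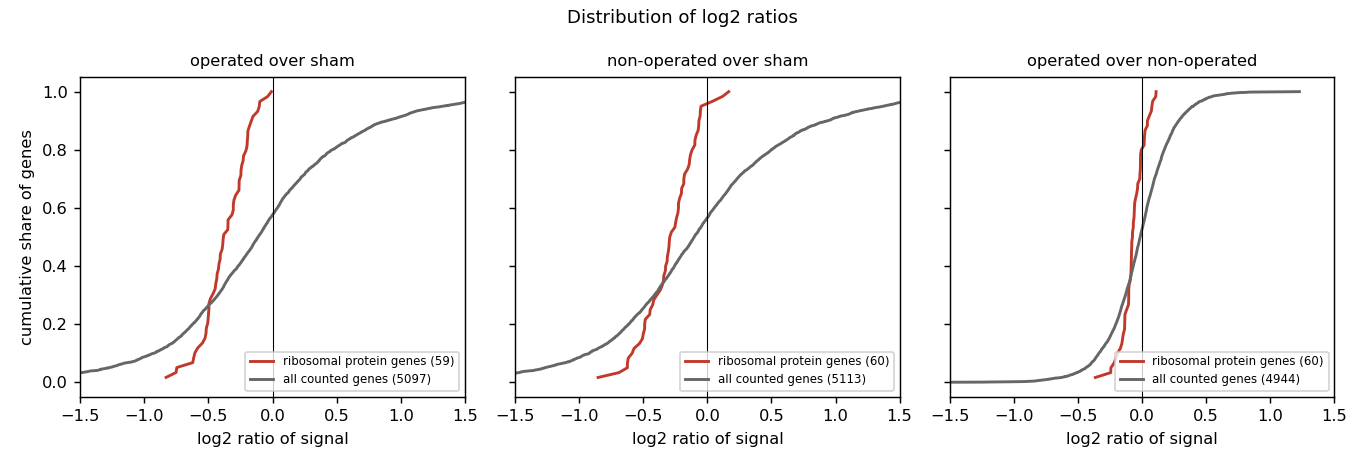
Cumulative share of genes (y axis) against the log2 ratio (x axis) for ribosomal protein genes (red) and all counted genes (grey) in the 3 comparisons, with the x axis cut at 1.5 on either side. Against sham the red curves rise steeply left of 0, with medians of -0.38 in the operated and -0.29 in the non-operated lung; between the sides the median is -0.08.

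Within the small subunit, ratios of operated over sham ran from -0.75 to -0.04 over 24 genes, with a median of -0.27. The lowest was RPS25, a head protein that viral internal ribosome entry sites depend on. Its log2 signal was 13.72 in the operated lung, 13.97 in the non-operated lung and 14.47 in sham, while a dim second probe set of the gene lay on the other side of 0. RPSA, which sits near the mRNA exit and also serves as a laminin receptor, had 13.62 in the operated lung, 13.76 in the non-operated lung and 14.24 in sham. These are 40.7% and 35.0% less signal in the operated lung than in sham, the 2 lowest values of the small subunit.

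At the other end of the small subunit, several genes barely differed between arrays by their brightest probe sets. RPS28, which lines the mRNA exit channel, had 14.08 in the operated lung, 14.06 in the non-operated lung and 14.12 in sham. RPS12 had 14.04, 14.02 and 14.14 in the same order, and the zinc finger protein RPS27 had ratios of -0.10 in operated over sham and -0.06 in non-operated over sham. In RPS28, RPS27 and RPS12 the operated lung was 2.65%, 6.66% and 6.94% lower than sham, the smallest steps of the subunit. A dim second probe set of RPS28 lay on the other side of 0, at 0.997 in operated over sham. The X-linked RPS4X had 13.46 in the operated lung, 13.53 in the non-operated lung and 13.95 in sham, a ratio of -0.50 in operated over sham.

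RPS20 was near the sham level in the non-operated lung, with 14.30 in the operated lung, 14.52 in the non-operated lung and 14.48 in sham. RPS6, the substrate of the S6 kinase downstream of mTOR, was at -0.20 in operated over sham and -0.14 in non-operated over sham. Proteins of the mRNA channel and decoding centre did not move as a block: the 7 genes RPS2, RPS9, RPS15, RPS23, RPS26, RPS28 and RPSA spanned -0.62 to -0.04 in operated over sham, with a median of -0.39.

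Large-subunit genes had lower median ratios than small-subunit genes when set against sham. The median of operated over sham was -0.42 for 35 large-subunit genes, a difference of small minus large of 0.14. In non-operated over sham the medians were -0.21 for the small and -0.31 for the large subunit, a difference of 0.10. In operated over non-operated lung they were -0.08 and -0.07. The subunits overlap: in operated over sham the large-subunit genes ran from -0.83 to -0.01. Ratios also went with brightness, as given below, and the subunits were not matched for it. The part of brightness in this difference was not tested.

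The stalk of the large subunit, which recruits elongation factors, is built of RPLP0, RPLP1 and RPLP2 on a base with RPL12. RPLP2 had a log2 signal of 12.49 in the operated lung, 12.47 in the non-operated lung and 13.10 in sham, 34.3% less in the operated lung than in sham. RPLP1, its partner in the stalk dimer, had 13.86, 13.95 and 14.01, a ratio of -0.15 in operated over sham. RPLP0, the anchor, was at -0.31 in operated over sham and RPL12 at -0.53, so proteins of the same structure had unlike ratios.

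RPL5, RPL11 and RPL23 bind the p53 regulator MDM2 when ribosome assembly fails. By their brightest probe sets they lay close together, from -0.39 to -0.31 in operated over sham and from -0.29 to -0.18 in non-operated over sham. The dimmer probe sets of RPL23 were at 0.12 and 0.14 in operated over sham. Around the tunnel through which the new protein leaves, RPL4, RPL17, RPL19, RPL22, RPL31 and RPL35 ran from -0.46 to -0.25 in operated over sham by their brightest probe sets. A dim one of RPL17 was at 0.23 and one of RPL35 at -0.92. Of 16 genes mutated in human Diamond-Blackfan anaemia, a failure of red cell formation, 14 could be read, with a median of -0.31 and a range of -0.51 to -0.04. None of these groups left the range of the other members.

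Further large-subunit genes at the ends of the ranking were RPL13, RPL15, RPL14 and RPL34. RPL13 had 13.06 in the operated lung, 12.99 in the non-operated lung and 13.61 in sham, and RPL15 had 13.46, 13.38 and 13.96. Both were slightly higher in the operated than in the non-operated lung. RPL34 was nearly level, with 13.63, 13.59 and 13.64, and RPL14 had 13.66, 14.02 and 13.86, with the non-operated lung on top.

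**Figure D3:**
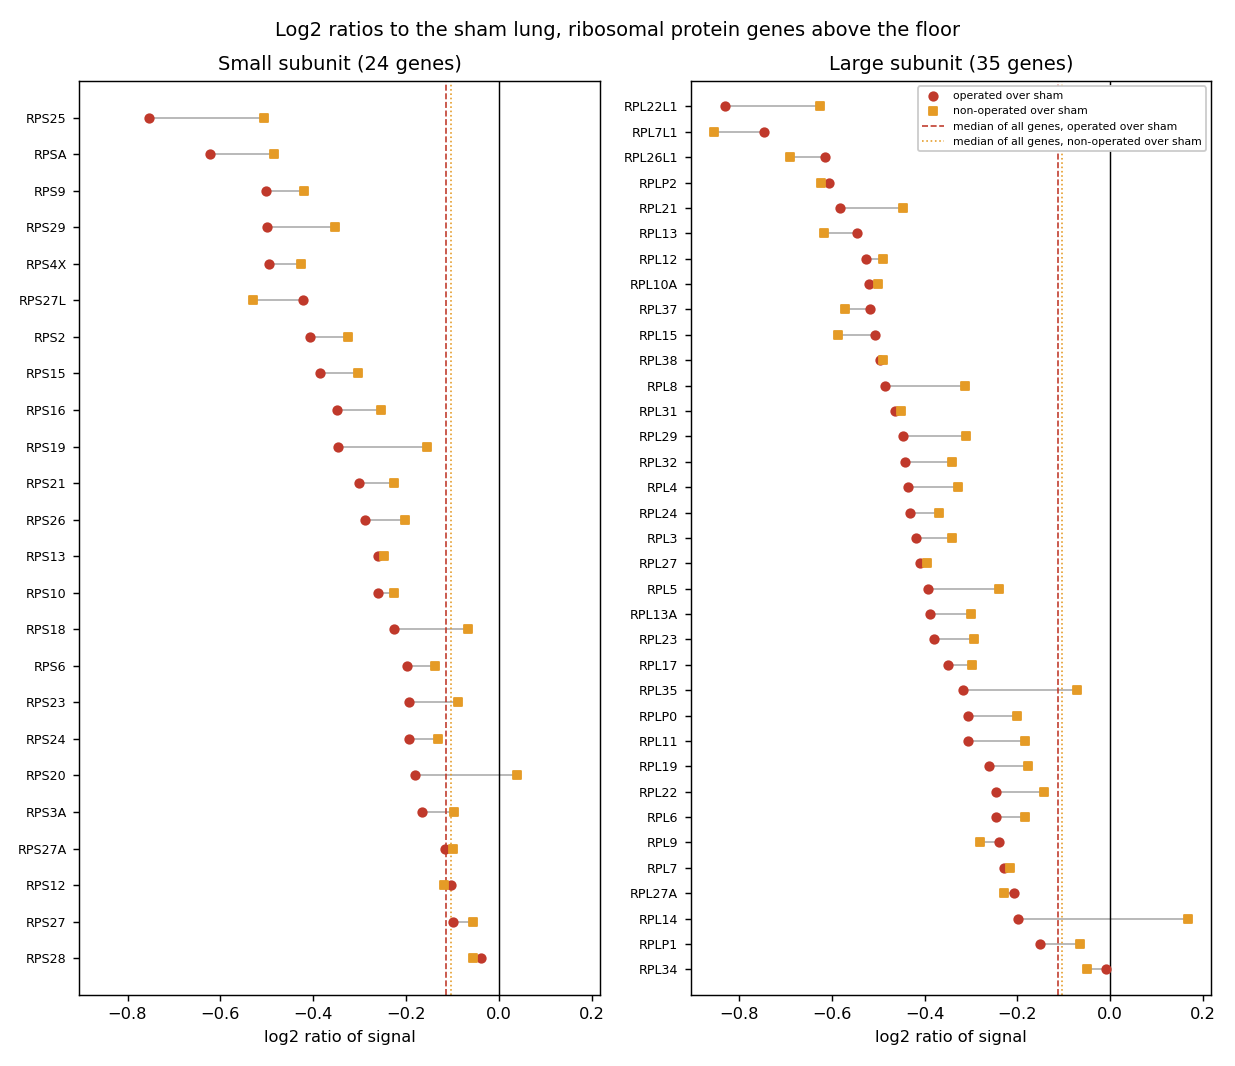
Log2 ratio to sham (x axis) for the 59 genes above the floor on all 3 arrays, with operated over sham as circles and non-operated over sham as squares; dashed and dotted lines mark the medians of all counted genes. RPL22L1 is the lowest circle at -0.83 and RPL34 the highest at -0.01, and only RPL14 and RPS20 have a square right of 0.

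The paralogs, near copies of a ribosomal protein encoded by a separate gene, included some of the lowest ratios. RPL22L1, which can take the place of RPL22 in the ribosome, had a log2 signal of 12.53 in the operated lung, 12.74 in the non-operated lung and 13.36 in sham, against 14.20, 14.30 and 14.45 for RPL22. In operated over sham it was 43.8% lower, the lowest of all members, and RPL22 was 15.7% lower. RPL7L1, a relative of RPL7 that acts in ribosome assembly, had 10.89 in the operated lung, 10.79 in the non-operated lung and 11.64 in sham. Its ratio of -0.75 in operated over sham stood 0.52 below that of RPL7.

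RPS27L, a p53-responsive copy of RPS27, had 11.77 in the operated lung, 11.66 in the non-operated lung and 12.19 in sham, a ratio 0.32 below that of RPS27 in operated over sham. RPL26L1 had 11.14, 11.06 and 11.75, and its counterpart RPL26 could not be read. The 4 paralogs had a median of -0.68 in operated over sham and -0.66 in non-operated over sham. In each of the 3 readable pairs the paralog had the lower ratio in both comparisons with sham, and its probe set was also the dimmer one. How far short probes of one near copy also read the other was not tested.

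Taken as a sum of linear signals, the representative probe sets of the 62 genes made up 4.97% of all signal in the operated lung, 5.20% in the non-operated lung and 6.11% in sham. With all 94 probe sets the shares were 5.38%, 5.60% and 6.64%. The median rank of the members, counted from the brightest probe set, was 106.5 in the operated lung, 101 in the non-operated lung and 83 in sham. Signals above 14 on the log2 scale were reached by 18 members in the operated lung, 22 in the non-operated lung and 37 in sham, out of 63, 74 and 99 probe sets of the whole array.

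The size of a ratio went with the brightness of the probe set. Over the 59 genes, members with lower mean signals tended to have lower ratios: Pearson's r between mean signal and log2 ratio was 0.52 in operated over sham and 0.68 in non-operated over sham, with Spearman's rho at 0.62 and 0.64. These correlations are across genes read on the same arrays and describe the chip as much as the tissue. Among member probe sets with a mean signal of 14 or more, 26 in number, the median of operated over sham was -0.24. It was -0.44 for 31 probe sets between 13 and 14, and -0.62 for 5 between 11 and 13. The trend did not go on below that: it was -0.36 for 10 probe sets between 9 and 11 and -0.13 for 9 between the floor and 9.

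In operated over sham, other genes had medians nearer to 0 in all ranges but the dimmest. From bright to dim, probe sets of all other named genes had medians of -0.01 over 23, -0.07 over 90, -0.05 over 945, -0.08 over 2465 and, next to the floor, -0.15 over 1845. Below 0 in operated over sham were 26 of 26 and 31 of 31 member probe sets of the 2 brightest ranges, where 56.5% and 52.2% of the other probe sets lay below 0. How far the scanner or the MAS5 summary flattens ratios near the top of the signal range was not tested.

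**Figure D4:**
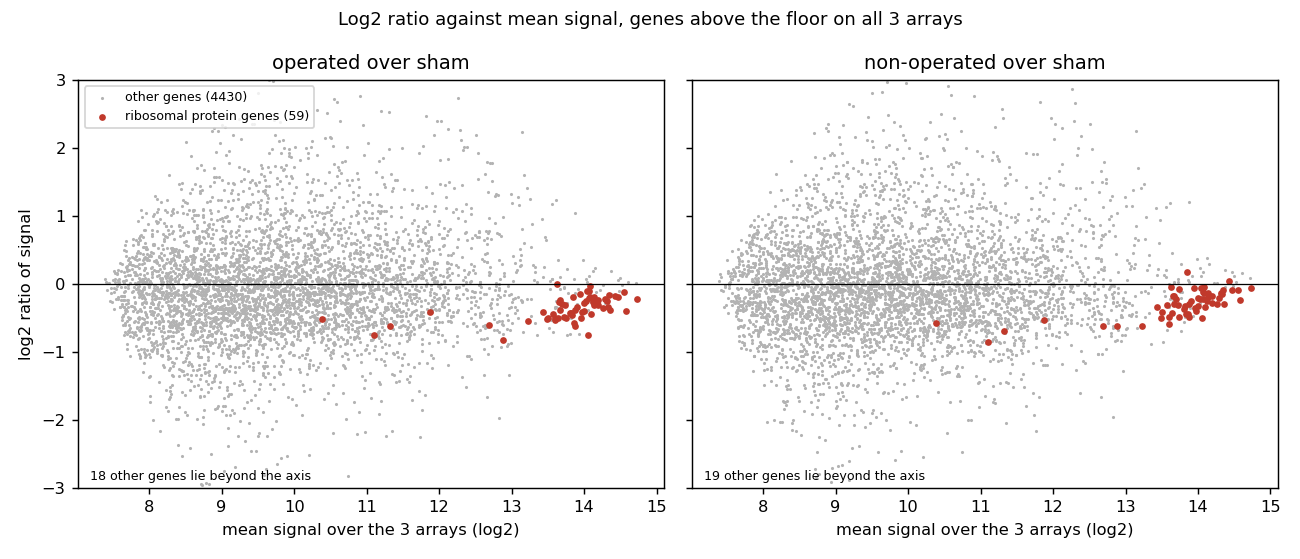
Log2 ratio (y axis) against mean log2 signal over the 3 arrays (x axis) for genes above the floor on all arrays, operated over sham on the left and non-operated over sham on the right. The 59 ribosomal protein genes (red) form a tight group below 0 at the bright end, and the 6 with a mean signal under 13 lie lower than most of the others.

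The spread between probe sets of 1 gene is the only internal measure of error, and it covers different probes on the same arrays only. Several probe sets were present for 24 genes, and 20 genes had at least 2 above the floor on all arrays, 42 probe sets in all. The pooled within-gene SD of the log2 ratio was 0.47 in both operated over sham and non-operated over sham, and 0.24 in operated over non-operated lung, a measure for single probe sets and not for a median over genes. In 15 of the 20 genes all probe sets had ratios below 0 in operated over sham, and in 14 in non-operated over sham. The matching shares of all genes with several probe sets were not counted. By 1 probe set each, 57.7% and 56.6% of all genes lay below 0. The median range between probe sets of a gene was 0.32 in operated over sham.

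In 4 genes the probe sets disagreed widely. RPS25 had a bright probe set at -0.75 in operated over sham and a dim one, with 8.89 in the operated lung, 8.80 in the non-operated lung and 7.39 in sham, at 1.504. RPL9 had a bright probe set at -0.24 and a dim one at -1.40, which had 8.46 in the operated lung, 8.14 in the non-operated lung and 9.86 in sham. RPS28 had a bright probe set at -0.04 and a dim one on the other side of 0, which had 9.49 in the operated lung and 8.49 in sham and stood at 0.51 in non-operated over sham. RPL35 had a bright probe set at -0.07 in non-operated over sham and a dim one at -1.22. For RPS25 and RPS28 the mean over the probe sets counted above the floor lay above 0, at 0.38 and 0.48 in operated over sham. Of the 20 genes, 5 had probe sets on both sides of 0 in operated over sham, and 6 in non-operated over sham. In operated over sham these were RPS25, RPS28, RPL17 at -0.35 and 0.23, RPL23 at -0.38, 0.12 and 0.14, and RPL6 at -0.25 and 0.07. The direction of such genes depends on the probe set taken. Some genes had closer probe sets: both of RPL31 were at -0.42 and -0.46, both bright ones of RPL27 at -0.36 and -0.41, and the 3 of RPS18 ran from -0.60 to -0.23.

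Other parts of the translation machinery were read from lists chosen by function. The 3 ribosomal proteins whose symbols fall outside the rule had similar ratios: RACK1, a scaffold on the small subunit, was at -0.41 in operated over sham, RPL36AL at -0.31 and FAU, a fusion gene that encodes a small-subunit protein, at -0.27. Of 18 elongation factors and other genes known for terminal oligopyrimidine mRNAs, 18 were below 0 against sham in the operated lung and 18 in the non-operated lung. Of all genes 57.7% and 56.6% were. The medians of the list were -0.36 and -0.29. In operated over sham 1 was at least 2-fold lower, or 5.56% against 8.79% of all genes, and 0 higher, against 8.65%. The chaperone NAP1L1 was lowest at -1.37, followed by EIF3H at -0.65 and the elongation factor subunit EEF1G at -0.57. EIF4A2, EEF1B2 and EIF3L were nearest to 0, at -0.14, -0.12 and -0.04.

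Genes that build ribosomes mostly had lower signals than in sham. Of 45 ribosome biogenesis factors counted in operated over sham, 40 were below 0, 5 were at least 2-fold lower and 0 higher, with a median of -0.42. As shares these are 88.9% below 0, against 57.7% of all genes, and 11.1% at least 2-fold lower, near the 8.79% of all genes. At least 1.5-fold lower were 18 of the 45, against 21.7% of all genes, and 1 was that much higher, against 16.7%. In non-operated over sham 21 of 46 were at least 1.5-fold lower, against 21.4%, and 1 higher, against 17.5%. The counts that follow are again for operated over sham. Above the floor on both arrays were 43, with 38 below 0 and 5 at least 2-fold lower. LYAR, a nucleolar protein of growing cells, had a log2 signal of 8.03 in the operated lung, 8.83 in the non-operated lung and 10.42 in sham. FBL, the methyltransferase fibrillarin that modifies ribosomal RNA, had 9.88, 9.99 and 11.11, and WDR75 had 7.93, 8.37 and 9.26. SBDS, which helps to release the assembly factor EIF6 from the new large subunit, went the other way, with 11.24 in the operated lung, 11.15 in the non-operated lung and 10.47 in sham. RSL24D1 and IMP3 were at 0.34 and 0.19 in operated over sham, and at -0.58 and -0.03 in non-operated over sham.

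The next list held 15 counted genes of RNA polymerases I and III, which make ribosomal RNA, and of factors acting on them. Of these, 10 (66.7%, against 57.7% of all genes) were below 0 in operated over sham and 0 were 2-fold lower or higher, with a median of -0.40. Above the floor on both arrays were 13, with 9 below 0. POLR3C was at -0.89 and TAF1D at -0.85, while the subunit POLR3K was at 0.58. Translation initiation factors had a median of -0.16 over 24 genes, 18 of them (75%, against 57.7% of all genes) below 0. EIF3I was at -1.03, the cap-binding protein EIF4E at -0.75, and the helicase EIF4A1 at 0.42. For 58 mitochondrial ribosomal proteins, which serve a separate ribosome, the median was -0.44. Of these, 52 were below 0, or 89.7% against 57.7% of all genes, and 4 at least 2-fold lower, or 6.90% against 8.79%. MRPS28 was at -1.49 and MRPL53 at 0.57. Above the floor on both arrays were 55, with 50 below 0 and 2 at least 2-fold lower. These 2 are 3.64%, against 8.04% of all genes above it on both arrays. In non-operated over sham the medians were -0.51 for biogenesis factors, -0.37 for the polymerase genes, -0.25 for initiation factors and -0.47 for mitochondrial ribosomal proteins, all set against the same sham array.

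The list of mTOR pathway genes and regulators of ribosomal protein mRNAs had medians near 0. The median was 0.00 in operated over sham and 0.13 in non-operated over sham over 16 genes. Below 0 were 7 and 5, or 43.75% and 31.25%, against 57.7% and 56.6% of all genes. SESN1, a stress-induced inhibitor of mTOR signalling, had a log2 signal of 10.91 in the operated lung, 11.36 in the non-operated lung and 10.02 in sham. EIF4EBP2, a repressor of cap-dependent translation that mTOR switches off, had 11.46, 11.21 and 10.74. RHEB, the small GTPase that activates mTOR, was at 0.33 in operated over sham, and RRAGA, a GTPase of amino acid sensing, at -0.69. TIAL1 and LAMTOR5, also at the low end of the list, were at -0.41 and -0.38. Of 37 listed genes 18 were named on the array, and 2 of these were at or under the floor.

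**Figure D5:**
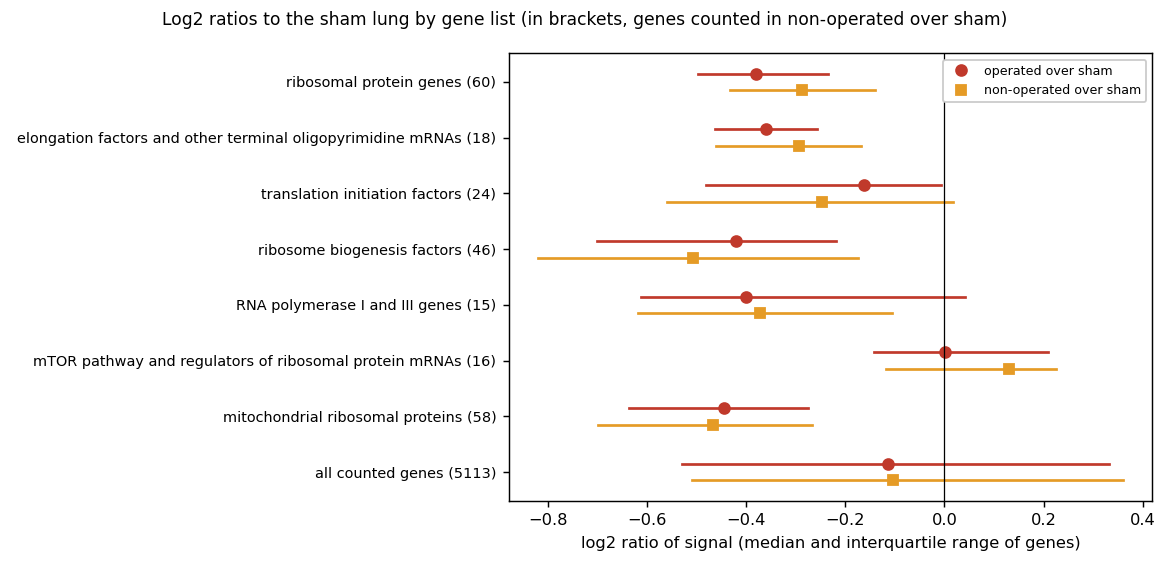
Median log2 ratio to sham (markers) with the interquartile range (bars) for gene lists of the translation machinery and for all counted genes, operated over sham as circles and non-operated over sham as squares. The ribosomal protein genes lie at -0.38 and -0.29, the mitochondrial ribosomal proteins at -0.44 and -0.47, and the mTOR list at 0.00 and 0.13.

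Markers of dividing and lymphoid cells differed between the arrays in the same direction as the ribosomal protein genes, with medians much further from 0. Of 22 cell division genes counted, 22 were below 0 and 20 at least 2-fold lower in operated over sham, against 57.7% and 8.79% of all genes. The median was -2.29. Of these 22, 9 were above the floor in sham and not in the operated lung, which fixes their direction; of the 13 above the floor on both arrays, 13 were below 0 and 12 at least 2-fold lower, with a median of -2.92. The 25 genes of the list summed to 0.063% of all signal in the operated lung, 0.068% in the non-operated lung and 0.279% in sham, and 12, 10 and 3 of them were at or under the floor. Of 14 B and T cell markers, 14 were below 0 and 11 at least 2-fold lower, against the same shares of all genes, with a median of -1.67. Here 4 were above the floor in sham and not in the operated lung; of the 10 above it on both arrays, 10 were below 0 and 7 at least 2-fold lower. Their 16 genes summed to 0.029%, 0.029% and 0.150%, with 6, 5 and 2 at or under the floor. TOP2A, a topoisomerase of dividing cells, had a log2 signal of 8.29 in the operated lung, 8.72 in the non-operated lung and 11.96 in sham. The lymphoid chemokine CXCL13 had 7.81, 8.43 and 12.72. Nearer to 0 in operated over sham were CD8A at -0.80, CD3E at -0.76, MAD2L1 at -0.74 and IL7R at -0.44. These lie within the range of the ribosomal protein genes. CD79B, CD3D and SPIB were under the floor in both ischemia-reperfusion lungs and above it in sham, and CCR7 and CD4 were under it on all arrays.

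Markers of endothelium, lung epithelium, and monocytes and macrophages lay on the other side, some of them close to 0. The median of operated over sham was 1.55 for 10 endothelial markers, 0.90 for 11 lung epithelium markers and 1.66 for 6 monocyte and macrophage markers. In each of these lists 0 were below 0, against 57.7% of all genes. At least 2-fold higher were 10, 5 and 4 in the same order, against 8.65% of all genes. Nearest to 0 were SFTPC at 0.08, SFTPA1 at 0.10 and EPCAM at 0.31 of the epithelium list, and FCGR3A at 0.08 of the macrophage list. ESAM of the endothelial and AGER of the epithelium list were under the floor in sham, which fixes their direction. The same holds for MARCO of the macrophage list, counted in non-operated over sham only. Above the floor on both arrays of operated over sham were 9, 10 and 6 markers in the same order, with 0 below 0. In non-operated over sham the medians were 1.56, 0.77 and 1.34 in the same order, with 1 lung epithelium gene below 0, and -2.05 for cell division genes and -1.57 for B and T cell markers. The summed signals of the endothelial, epithelial and macrophage lists were 0.176%, 0.489% and 0.143% in the operated lung, 0.191%, 0.457% and 0.140% in the non-operated lung, and 0.057%, 0.299% and 0.051% in sham. The part of these cell types in the ribosomal protein signals was not tested. Among genes often used as references, HPRT1, GUSB and YWHAZ were at -1.24, -1.17 and -0.79 in operated over sham, and PPIA, ACTB and B2M at -0.28, -0.07 and 0.03, so the place of the ribosomal protein genes relative to a reference gene depends on which one is taken. ENG, KDR and TIE1 of the endothelial list and CD14 and ITGAM of the macrophage list were under the floor on all arrays. Of 4 red blood cell genes AHSP was under the floor on every array, and the list summed to 0.011%, 0.009% and 0.007%.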

How the data were processed

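RNA of 3 lung samples was hybridised to an Affymetrix porcine array, per the labels' protocols after TRIZOL extraction and 3' in vitro transcription labelling. The deposited log2 signals come from MAS5, per the submitters' processing notes, with version and scaling target not given in the sources used here. The linear signals, averaged with 2% trimmed at each end, came to 497, 497 and 496 in operated, non-operated and sham lung, so no scaling was added. Of 23999 probe sets, 64 reporter controls were left out. Gene names came from the platform annotation. A gene was counted where it lay above the floor (the array's median) on at least 1 array of a comparison, and lower values were set to the floor. Ratios are differences of log2 signal, and 2-fold is 1 on that scale. With 1 array per group no test was run, and precision is limited by that number. The members, gene lists and groups by role were chosen with earlier results of these data known. Members were named by rule: in each comparison the 5 highest and 5 lowest ratios, the 4 brightest and 4 dimmest, those at the floor, those whose probe sets differed by over 1 or lay on both sides of 0 by over 0.25 each, and a fixed set of paralogs with RPS27A. From each list up to 3 genes at each end of operated over sham were named. RPL4, RPL6, RPL7, RPL11, RPL12, RPL13A, RPL17, RPL19, RPL22, RPL23, RPL27, RPL31, RPLP0, RPLP1, RPS2, RPS6, RPS9, RPS15, RPS26 and the markers named only as under the floor were chosen after their values were seen. The calculation was tested on simulated data. Python 3.11.15, pandas 2.3.3 and numpy 2.4.6 were used. Alternatives covered scaling, floor, pseudocount, probe set choice and threshold.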

Additional observations from a re-analysis of the deposited data

Results flagged for a closer look

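In 2 ribosomal protein genes the lungs lay on opposite sides of the sham array. RPL14 had a log2 signal of 13.66 in the operated lung, 14.02 in the non-operated lung and 13.86 in sham, a difference of -0.37 for operated minus non-operated lung. RPS20 had 14.30, 14.52 and 14.48, a difference of -0.22. The difference between the lungs was not tested, since each is 1 array. The within-gene SD between probe sets in this comparison was 0.24. After quantile normalization RPL14 was above sham in both lungs, at 0.07 in operated over sham and 0.34 in non-operated over sham, and RPS20 kept opposite sides, at -0.08 and 0.03. RPL14 and RPS20 have 1 probe set each.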

How the results depend on the processing

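The median ratio of the members to sham stayed below 0 under each of the alternatives, from -0.46 to -0.17 in operated over sham and from -0.38 to -0.16 in non-operated over sham. The value nearest to 0 in both came from quantile normalization, which gives each rank the same signal on every array. It took the members' median, relative to that of all genes, to -0.072 in operated over sham, against -0.267 as deposited, and to -0.074 in non-operated over sham, against -0.184. The cause was not tested. Under it operated over sham had a median of -0.17. Operated over non-operated had a median of 0.00, against -0.08 before, with 28 of 60 genes below 0, against 51.7% of all genes. With no floor 1 gene, RPS15A, was 2-fold lower in non-operated over sham, and the within-gene SD was 0.893 in non-operated over sham and 0.763 in operated over non-operated. With every probe set counted on its own, 2 were 2-fold lower in operated over sham and 2 in non-operated over sham. The dim probe set of RPS25 was 2-fold higher in both, at 1.504 and 1.410. The matching shares of all probe sets were not counted. Without members of a mean signal of 14 or more, the numbers below 0 were 33 of 33, 32 of 34 and 26 of 34 in operated over sham, non-operated over sham and operated over non-operated. Of all genes 57.7%, 56.6% and 52.8% lay below 0 in the same order. At 1.5-fold 6 genes were lower in operated over sham and 6 in non-operated over sham. The other 119 summary values kept their direction, but some moved by over 1.5 times, namely the non-operated over sham median under quantile normalization (-0.16) and the difference between subunits, which was 0.094 in operated over sham with the mean of all probe sets and ran from -0.042 to -0.004 in operated over non-operated. Centring arrays on their medians moved RPL34 to 0.01 in operated over sham. Requiring both arrays above the floor, counting probe sets singly and leaving out the brightest members were chosen after seeing the data, as were the order of the arrays under quantile normalization and the gene lists above the floor on both arrays. No paired analysis was possible because each group is 1 array. Signals near the floor and near the top of the range limit what the ratios show.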

Other observations

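For 8 ribosomal protein genes, RPL6, RPL12, RPL13A, RPL17, RPL23, RPL24, RPL32 and RPS6, the array holds a pair of probe sets whose names share a sequence cluster and differ in the letter A or S. The sources used here do not say what the letters stand for. In every one of these 8 pairs 1 probe set was far brighter, by 3.10 to 6.15 on the log2 scale, and the brighter one carried the letter S in 3 pairs and A in 5. The dim probe set lay below 0 against sham in both lungs in 4 of the 8 pairs. The matching share of such pairs over all genes was not counted. For RPL12 the bright and dim probe sets had ratios of -0.53 and -0.58 in operated over sham, and for RPL13A -0.39 and -0.13. The pairs of RPL17, RPL23 and RPL6 lay on opposite sides of 0 in this comparison, at -0.35 and 0.23, -0.38 and 0.14, and -0.25 and 0.07.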
